A study of Homo sapiens with 24 samples.

Results

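The TRIM family was taken as every gene of the count files whose name is TRIM or TRIML followed by a number and at most 1 further letter, outside chromosomes X and Y. This rule, which used no measured value, gave 74 of the 57820 genes. Relatives that carry other names, such as PML and MEFV, are not members. The RNA came from Cal33 and SAS, a pair of established cell lines from squamous cell carcinomas of the tongue. Each line had 4 groups of 3 replicate libraries, namely a sham control, 4.5 µM GSK-J1, 4 Gy of x-rays, and GSK-J1 together with 4 Gy, with RNA taken at 24 h. GSK-J1 inhibits KDM6A and KDM6B, which remove the repressive methyl marks of lysine 27 on histone H3. The comparisons ask which TRIM messages respond to the inhibitor, to irradiation, or to both, within each line. Each line stands for a single tumour, and nothing states that replicates were separate cultures, so p-values measure only the spread between these libraries.

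TRIM proteins share an N-terminal module of a RING finger, 1 or more B-boxes and a coiled coil, and most act as ubiquitin ligases. The C-terminal domain, often SPRY, sets what they bind. Many members are induced by interferon and act against viruses or tune the sensors of foreign nucleic acids, while TRIM28 silences chromatin and others work on the cytoskeleton, in muscle or in epithelia. Members such as TRIM14, TRIM16, TRIM29, TRIM44 and TRIML2 lack the RING finger.

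The libraries held 54200036 to 96848227 counts on the strand of the gene, of which the TRIM members took 0.174 to 0.330%. All 11 squamous markers had at least 10 CPM (counts scaled to library size by TMM) in both lines. Of 16 markers of other cell types, 11 were under 1 CPM in each line, among them MS4A1 at 0, and CDH5 was the highest at 34.8 CPM in SAS and 31.6 CPM in Cal33. A pair of SAS libraries held transcripts of Cal33. For 14 genes that the other SAS libraries barely read, GSK-J1 replicate 1 reached 1.46% and GSK-J1 with 4 Gy replicate 1 reached 0.756% of the Cal33 level, against at most 0.00403% elsewhere in SAS.

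Of the 74 members, 64 had at least 1 count in some library, and 10 had none in any library. Those 10 were TRIM48, TRIM49B, TRIM49C, TRIM51, TRIM58, TRIM60, TRIM61, TRIM64, TRIM64C and TRIM77, mostly of the young gene clusters whose copies are nearly identical. In each fit 55 members passed the filter of a mean of 1 count per library and 19 did not. The family was spread over 17 chromosomes, with 19 members on chromosome 11, 9 on chromosome 1 and 8 on chromosome 6. Levels between genes are given as TPM, counts per exonic length scaled to a common total per library, of the sham libraries. By this measure 43 members reached 1 TPM in SAS and 39 in Cal33, 25 and 30 members reached 10 TPM, and 2 and 3 members reached 100 TPM.

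TRIM28, the corepressor that KRAB zinc finger proteins bring to chromatin, had the highest level in both lines. Its values were 274, 306 and 321 TPM in SAS and 294.5, 359 and 264 TPM in Cal33, so the lines overlapped. In Cal33 the next members were TRIM29, a RING-less protein of stratified epithelia, at 176 ± 41.0 TPM (SD, n = 3), and TRIM14, an adaptor of mitochondrial antiviral signalling, at 109 ± 11.1 TPM. TRIM44 and TRIM25, the ligase that activates the RNA sensor RIG-I, followed at 74.2 ± 6.68 and 74.0 ± 5.07 TPM, which do not differ beyond their spread. In SAS the order was TRIM8, a regulator of cytokine signalling, at 145 ± 23.9 TPM, TRIM25 at 99.9 ± 3.01 TPM, TRIM44 at 69.5 ± 6.92 TPM and TRIM56, an antiviral ligase, at 67.6 ± 1.22 TPM. TRIM44 and TRIM56 again lay within each other's spread. Thus 3 of the 5 most abundant members were shared between the lines.

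**Figure D1:**
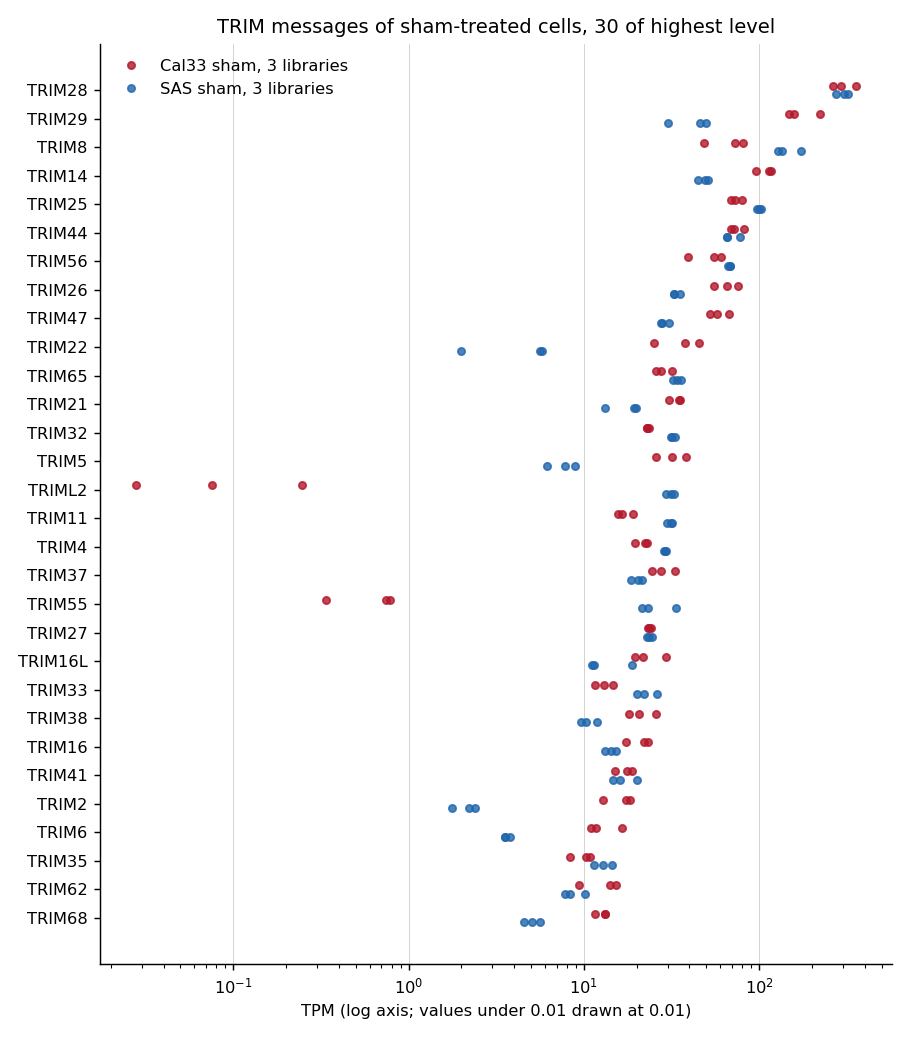
TPM on a log axis of the 30 members with the highest level, in the 3 sham libraries of Cal33 (red) and of SAS (blue). TRIM28 leads in both lines at 264 to 359 TPM, while TRIML2 and TRIM55 are above 10 TPM in SAS and under 1 TPM in Cal33.

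The untreated lines differed in most members. Of 55 members tested between the sham groups, 43 were called, 25 higher in Cal33 and 18 higher in SAS. A call here is a p under 0.05 after Benjamini-Hochberg adjustment over all genes (edgeR's quasi-likelihood test on all 24 libraries). In these bulk samples, fewer cells that transcribe a gene and less RNA per cell cannot be told apart. Over all genes 54.5% were called, 27.2% higher in Cal33 and 27.2% lower. The median log2 fold change of the members was 0.28 against 0.02 for all genes tested. CPM in the next 3 paragraphs were scaled over the 24 libraries.

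Among the members that Cal33 transcribed more, TRIM22, an interferon-induced antiviral ligase, had 85.0, 46.2 and 70.7 CPM in Cal33 and 10.7, 11.03 and 3.66 CPM in SAS. Every Cal33 value lay above every SAS value, with a log2 fold change of 3.00 ± 0.40 (SE) and an adjusted p = 1.7e-06 in edgeR. TRIM29 had 709, 462 and 505 CPM against 160, 148 and 94.2 CPM, again with no overlap (log2 fold change 2.06 ± 0.19, edgeR adjusted p = 6.0e-09). TRIM2, an NHL-repeat ligase known for binding neurofilament, had 53.4, 49.9 and 37.3 CPM in Cal33 and 6.96, 6.54 and 5.08 CPM in SAS. TRIM5, which recognises the capsids of retroviruses, and TRIM7, which binds glycogenin, were higher in Cal33 by log2 fold changes of 2.05 ± 0.21 and 2.36 ± 0.27.

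In the other direction TRIM17, a RING-SPRY ligase known from the control of neuronal apoptosis, had no count in the 3 Cal33 sham libraries and 13.1, 10.2 and 6.50 CPM in SAS. Against a limit of 3 counts over the Cal33 group, TRIM17 was at least 767-fold higher in SAS on these counts. Over the 13 alternative runs its log2 fold change of Cal33 over SAS ranged from -14.3 to -2.96, and each run called it. TRIML2, a RING-less relative that p53 is known to induce, had 0.0265, 0.231 and 0.0715 CPM in Cal33 and 29.9, 28.4 and 30.7 CPM in SAS, which makes a log2 fold change of -8.13 ± 0.51 (edgeR adjusted p = 1.6e-11). TRIM55, a ligase of striated muscle, had 0.715, 0.318 and 0.756 CPM in Cal33 and 22.6, 32.9 and 20.3 CPM in SAS. TRIM46, which organises microtubules of the axon, had 1.496, 1.13 and 0.807 CPM in Cal33 and 7.67, 7.89 and 7.56 CPM in SAS. TRIM36, another COS-box protein of microtubules, was lower in Cal33 by a log2 fold change of -2.95 ± 0.41. Each of these 5 members was without overlap between the lines.

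By group, 8 of 10 interferon-linked antiviral TRIMs were called higher in Cal33 and TRIM25 was called lower, and the group's median was 1.09 on the log2 scale. Beside them, 30 of 37 interferon-stimulated genes outside the family were called higher in Cal33 and 1 lower, at a median of 2.70. Of the 6 COS-box TRIMs tested, 3 were called lower and 1 higher, at a median of -1.65. Of the 5 chromatin and transcription TRIMs, TRIM24 was called higher and TRIM33 lower. TRIM28 and TRIM27 differed by log2 fold changes of 0.01 ± 0.15 and -0.01 ± 0.08, which edgeR did not call (adjusted p = 0.963 and 0.903).

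**Figure D2:**
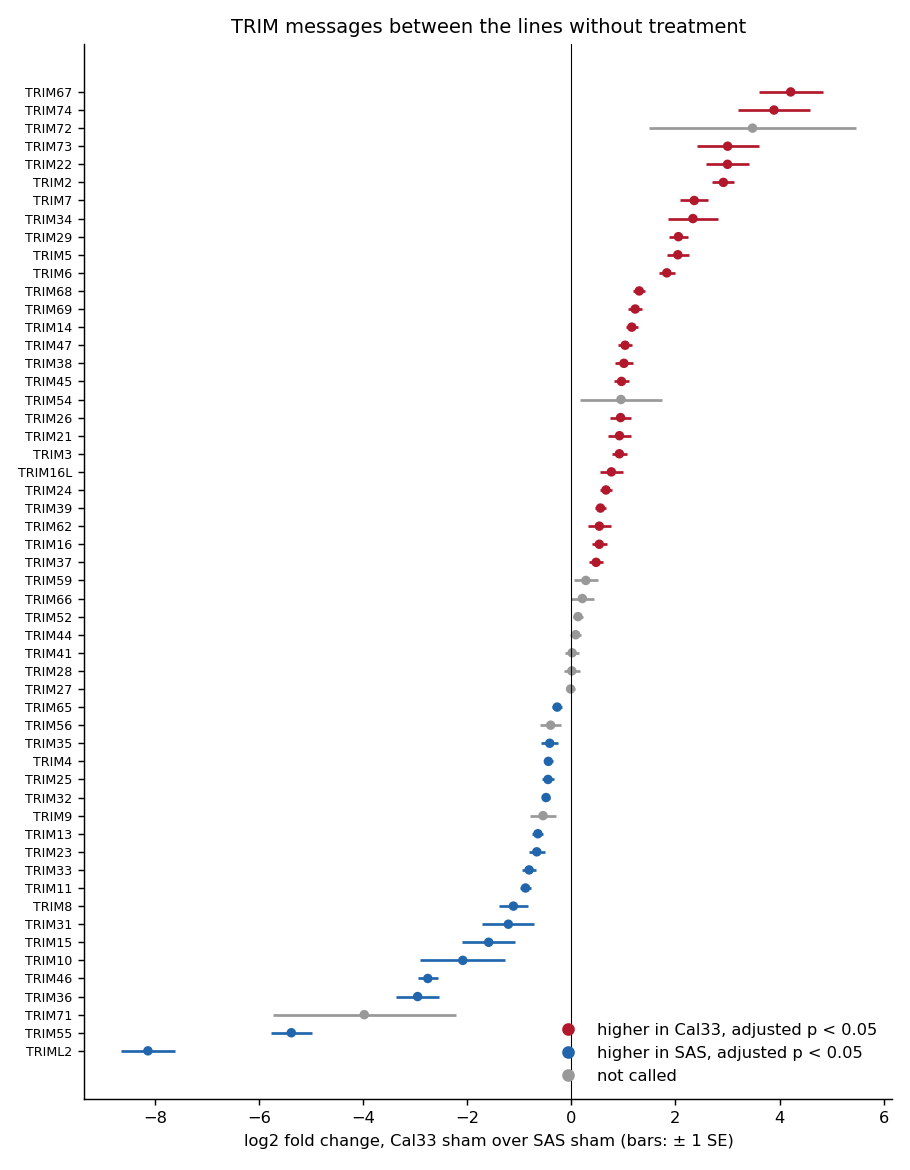
Log2 fold change of Cal33 sham over SAS sham with 1 SE for 54 tested members, red where higher in Cal33, blue where higher in SAS, grey where not called. TRIM17 is not drawn because Cal33 had no count. TRIML2 lies farthest to the left at -8.13. On the right TRIM22, TRIM2, TRIM7, TRIM29 and TRIM5 lie at 2.05 or above, and the farthest point, at 4.21, is a member under 1 CPM in both lines.

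Irradiation of Cal33 raised a set of TRIM messages. In 4 Gy against sham, 9 of 55 tested members were called by edgeR without a block, all of them higher, where 6.27% of all genes were called, 3.47% higher and 2.81% lower. The members' median log2 fold change was 0.15 against 0.01 for all genes. The 9 were TRIML2, TRIM31, TRIM36, TRIM25, TRIM16, TRIM22, TRIM21, TRIM10 and TRIM34. DESeq2 called 13 members, 11 higher and 2 lower, where it called 2678 of 24334 genes, 1398 higher and 1280 lower. To these 9 it added TRIM69 and TRIM55 on the higher side and TRIM45 and TRIM13 on the lower side, at edgeR log2 fold changes of 0.48, 1.43, -0.60 and -0.46. CPM of single genes from here on were scaled within a line, and CPM summed over a list of genes were scaled over the 24 libraries.

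TRIM22 had 88.7, 49.3 and 74.0 CPM in the sham libraries and 170, 106 and 163 CPM after 4 Gy. All irradiated values lay above all sham values, and the log2 fold change was 1.05 ± 0.25 (edgeR adjusted p = 0.0308). TRIM21, the cytosolic antibody receptor, had 22.2, 19.5 and 22.1 CPM before and 41.8, 30.3 and 53.3 CPM after irradiation (log2 fold change 0.97 ± 0.24, edgeR adjusted p = 0.0335). TRIM25 had 171, 160 and 151 CPM before and 260, 214 and 262 CPM after irradiation (log2 fold change 0.61 ± 0.13, edgeR adjusted p = 0.0212). Replicate 2 was the lowest irradiated library for each of these genes. TRIM34, a neighbour and relative of TRIM5, had few counts, with 15, 22 and 48 before and 58, 61 and 72 counts after irradiation (log2 fold change 1.23 ± 0.33, edgeR adjusted p = 0.046). It overlaps a read-through gene that joins TRIM6 and TRIM34, which had at most 2 counts in any library.

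These are 4 of the 10 interferon-linked antiviral TRIMs, of which 9 had a positive log2 fold change, with a median of 0.55. TRIM26 had 92.4, 109 and 78.7 CPM before and 115, 121 and 194 CPM after irradiation, without overlap, yet was not called (log2 fold change 0.62 ± 0.24, edgeR adjusted p = 0.148). TRIM5, TRIM14, TRIM38 and TRIM56 had log2 fold changes of 0.50, 0.28, 0.36 and 0.31 and were not called. TRIM6 was the exception, at -0.05 ± 0.17. Outside the family, 32 of 37 interferon-stimulated genes were called higher, at a median of 1.77, so the TRIM median was smaller than that of these genes. Their summed level was 5276, 3793 and 3832 CPM in the sham libraries and 12570, 10062 and 16456 CPM after 4 Gy. PML, a nuclear body protein of the TRIM structure, also rose by a log2 fold change of 0.80 ± 0.20 (edgeR adjusted p = 0.0359).

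Promoters were read for the core of the interferon-stimulated response element, which is GAAA, any 2 bases and GAAA again, on either strand, because the members that rose together included known interferon targets. RefSeq promoters of GRCh38.p14, from 250 bases before to 50 bases after a gene's start, were at hand for 58 of the 74 members. TRIM4, TRIM8, TRIM11, TRIM13, TRIM16L, TRIM22, TRIM24, TRIM27, TRIM28, TRIM29, TRIM35, TRIM43, TRIM43B, TRIM45, TRIM55 and TRIM60 had no entry. The core stood in 10 of the 58, or 17.2% (5 of the 9 interferon-linked members with an entry), and in 3.65% of all 27305 genes on the main chromosomes. Of the 9 members that rose in Cal33, TRIM16, TRIM21 and TRIM34 held it, and TRIM10, TRIM25, TRIM31, TRIM36 and TRIML2 did not. The stretches around the match are printed in the direction of the gene, with the fixed bases of the core in capitals, for these 3 and for the interferon-linked members TRIM5, TRIM14 and TRIM26.
TRIM21, chr11:4393665-4393690, minus strand: gagcgGAAActGAAAgtGAAAtaggg
TRIM34, chr11:5624896-5624935, plus strand: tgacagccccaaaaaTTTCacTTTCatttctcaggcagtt
TRIM16, chr17:15683007-15683046, minus strand: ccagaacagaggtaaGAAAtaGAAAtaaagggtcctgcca
TRIM5, chr11:5685077-5685116, minus strand: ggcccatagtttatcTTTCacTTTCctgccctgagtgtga
TRIM14, chr9:98119224-98119263, minus strand: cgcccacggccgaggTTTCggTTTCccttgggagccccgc
TRIM26, chr6:30213570-30213615, minus strand: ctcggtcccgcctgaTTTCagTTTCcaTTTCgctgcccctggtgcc
TRIM21 and TRIM26 each held a pair of overlapping matches. The match of TRIM21 began 18 bases into the transcript, and the others began 27 bases (TRIM5), 26 bases (TRIM14), 90 bases (TRIM34), 80 bases (TRIM16) and 194 bases (TRIM26) before the start. TRIM69, TRIM44, TRIM2 and TRIM64C also held the core. In Cal33 after 4 Gy their log2 fold changes were 0.48 for TRIM69, 0.04 for TRIM44 and -0.65 for TRIM2, and edgeR without a block called none of them, while DESeq2 called TRIM69. TRIM64C had no counts. A match of these letters is a description of the sequence and not evidence of binding.

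The largest changes in irradiated Cal33 were in members with few counts in sham cells. TRIML2 had 0.0276, 0.247 and 0.0748 CPM in sham libraries, which is 2, 16 and 7 counts, and 2.32, 0.608 and 2.07 CPM after 4 Gy, which is 176, 43 and 168 counts. Its log2 fold change was 3.88 ± 0.72 (edgeR adjusted p = 0.0101), and 4.93 without sham replicate 2, the highest sham library. TRIM31, an epithelial ligase that acts on the adaptor MAVS, had 6, 5 and 23 counts in sham libraries and 108, 44 and 47 counts after irradiation (log2 fold change 2.63 ± 0.51, edgeR adjusted p = 0.0123). TRIM31 overlaps an antisense gene, and in counts taken without regard to strand its log2 fold change was 0.90 and was not called (adjusted p = 0.269). Without sham replicate 3 the log2 fold change was 3.44 for TRIM31 and 4.36 for TRIM10. At the low end of the 14 alternative runs it was 3.44 for TRIML2 and 2.54 for TRIM10. TRIM36 rose from 5, 20 and 17 counts to 113, 37 and 77 counts (log2 fold change 2.41 ± 0.51, edgeR adjusted p = 0.0173). TRIM10, a ligase of the erythroid lineage, had 1, 0 and 4 counts against 20, 8 and 13 counts (log2 fold change 3.00 ± 0.77, edgeR adjusted p = 0.0393).

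TRIM16, which promotes keratinocyte differentiation, was the remaining member called. It had 31.6, 40.9 and 42.6 CPM in sham libraries and 59.7, 52.6 and 60.7 CPM after 4 Gy (log2 fold change 0.59 ± 0.14, edgeR adjusted p = 0.0308). TRIM16L is a near copy of its sequence, so some reads may be shared. TRIM29 had 739, 493 and 529 CPM before and 414, 449 and 484 CPM after irradiation, without overlap, but was not called (log2 fold change -0.39 ± 0.16, edgeR adjusted p = 0.163). TRIM28 had 385, 474 and 347 CPM before and 392, 504 and 548 CPM after irradiation and was not called either (log2 fold change 0.26 ± 0.18, adjusted p = 0.436). By group, 2 of 5 epithelial TRIMs (TRIM31 and TRIM16) were called, 1 of 6 COS-box TRIMs (TRIM36) and 1 of 15 other RING-SPRY TRIMs (TRIM10). None of the 5 chromatin, 3 NHL-repeat or 5 membrane and filamin TRIMs was called by edgeR without a block, with medians of 0.06, -0.00499 and -0.04. Among the enzymes that TRIM ligases work with, none of 10 E2 enzymes was called, and of 10 partners of TRIM28 in silencing 1 was called lower.

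The calls of irradiated Cal33, among the members as over all genes, leaned on single libraries. All 9 kept a positive log2 fold change when any 1 library was left out. Without 4 Gy replicate 1, 4 Gy replicate 3 or sham replicate 1, however, 2 of the 9 were still called. Without sham replicate 2 or 3, 5 were still called. Over all genes, 1528 calls fell to 597, 427, 458, 1210 and 717 on these omissions, in that order.

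**Figure D3:**
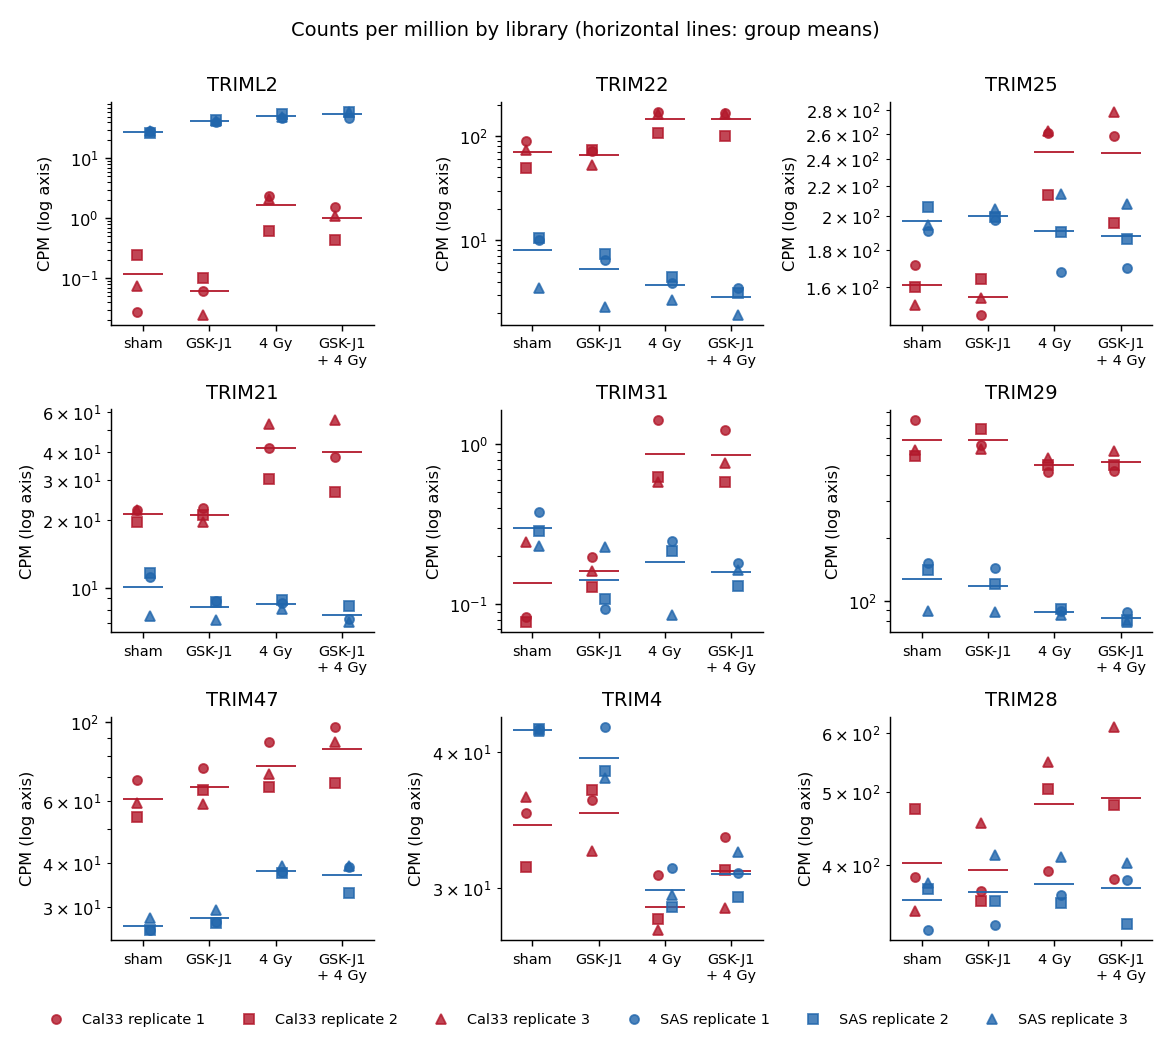
CPM on log axes of 9 members in all 24 libraries, Cal33 in red and SAS in blue, with replicates as circles, squares and triangles and group means as horizontal lines. TRIM22, TRIM21 and TRIM25 are higher in every irradiated Cal33 library than in every sham library, and TRIML2 in SAS is higher in each treated group than in sham.

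The same step of irradiation under the inhibitor, GSK-J1 with 4 Gy against GSK-J1, gave 8 of 55 members called in Cal33, all higher, where 5.11% of all genes were called, 3.04% higher and 2.07% lower. The median of the members was 0.29 against 0.02 for all genes. This comparison shares no library with the one before, but both were tested in the same fit of the Cal33 libraries. Same-numbered libraries of 4 Gy and of GSK-J1 with 4 Gy also deviated together from their group means, with correlations of 0.636, 0.404 and 0.400. The steps are therefore not independent of each other. The 8 were TRIML2, TRIM25, TRIM31, TRIM22, TRIM16, TRIM69, TRIM36 and TRIM21, so 7 names were called in both steps. TRIM22 had 71.6, 74.1 and 53.05 CPM under GSK-J1 and 168, 101 and 164 CPM with 4 Gy added (log2 fold change 1.12 ± 0.25, edgeR adjusted p = 0.0259). TRIML2 had 6, 7 and 2 counts under GSK-J1 and 121, 31 and 82 counts with 4 Gy added (log2 fold change 4.03 ± 0.77, edgeR adjusted p = 0.0127). TRIM69, a microtubule-bound antiviral protein, had 36.6, 40.0 and 32.1 CPM and then 49.8, 49.2 and 60.9 CPM (log2 fold change 0.56 ± 0.14, edgeR adjusted p = 0.0377). All 10 interferon-linked TRIMs had positive log2 fold changes here, with 3 called and a median of 0.61. On counts without strand TRIM31 was again not called, at 0.93 (adjusted p = 0.262).

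Replicate numbers were taken to pair these groups, because same-numbered libraries deviated together with correlations above 0.1. For replicate 2 the correlation was 0.105, and no label states a pairing. With the replicate as a block over the 6 libraries compared, 22 members were called, where 18.4% of all genes were. The members added included TRIM5 at 0.62 ± 0.12, TRIM8 at 0.61 ± 0.12 and TRIM26 at 0.58 ± 0.12, and, on the lower side, TRIM2 at -0.54 ± 0.12 and TRIM45, which dampens MAP kinase signalling, at -0.63 ± 0.14 (log2 fold changes, edgeR adjusted p from 0.0004 to 0.00147). Without the block, leaving out GSK-J1 replicate 2 or 3 ended all 8 calls. Leaving out either GSK-J1 with 4 Gy replicate 1 or 3 left 1, and leaving out GSK-J1 replicate 1 left 2. Over all genes, 1245 calls fell to 254, 361, 515, 369 and 573 on these omissions, in that order.

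In SAS the family was called about as often as other genes. In 4 Gy against sham, 4 of 55 tested members were called, TRIML2 and TRIM47 higher and TRIM4 and TRIM45 lower. Of all genes, 7.08% were called, 3.63% higher and 3.45% lower. The median log2 fold change of the members was -0.06 against -0.02 for all genes.

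TRIML2 had 28.3, 26.8 and 29.2 CPM in sham SAS libraries and 46.9, 54.2 and 49.9 CPM after 4 Gy, without overlap (log2 fold change 0.84 ± 0.09, edgeR adjusted p = 0.000539). TRIM47, a RING-SPRY ligase, had 25.9, 25.9 and 28.0 CPM before and 37.6, 37.4 and 39.2 CPM after irradiation (log2 fold change 0.52 ± 0.08, edgeR adjusted p = 0.0037). TRIM4, a RING-SPRY ligase that acts on RIG-I, had 42.0, 41.9 and 41.8 CPM before and 31.3, 28.8 and 29.5 CPM after irradiation (log2 fold change -0.49 ± 0.07, edgeR adjusted p = 0.00249). For TRIML2, TRIM47 and TRIM4 the replicates of a group were tight and the groups far apart. TRIM45 had 6.61, 6.48 and 6.89 CPM before and 5.13, 4.84 and 4.57 CPM after irradiation (log2 fold change -0.46 ± 0.12, edgeR adjusted p = 0.042).

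None of the 10 interferon-linked TRIMs was called in irradiated SAS, and 9 had a negative log2 fold change, with a median of -0.15. Of the 37 interferon-stimulated genes outside the family 2 were called higher, at a median of 0.25. With the replicate block over the 6 libraries, 9 of these 37 were called higher and 4 lower, and of the 10 TRIMs 2 were called lower. That fit called 3869 of 23287 genes, 1829 higher and 2040 lower. TRIM22 had 10.1, 10.4 and 3.48 CPM in sham libraries and 3.88, 4.48 and 2.69 CPM after 4 Gy, so the groups overlapped through sham replicate 3 (log2 fold change -1.12 ± 0.45, edgeR adjusted p = 0.149). Each irradiated library was below the sham library of its own number. TRIM29 had 151, 140 and 89.5 CPM before and 89.5, 91.3 and 85.5 CPM after irradiation, with sham replicate 3 again low. Other transcripts were low in that library too. The interferon-stimulated genes summed to 2355, 2153 and 1368 CPM over the sham replicates and the 16 markers of other cell types to 140, 140 and 39.3 CPM, and their part in the TRIM22 result was not tested.

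By the same rule replicate numbers were taken to pair all groups of SAS, with a lowest correlation of 0.113. With the replicate as a block over the 12 libraries, 11 members were called, where 24.5% of all genes were. The block called TRIM22 at -1.01 ± 0.18, TRIM29 at -0.48 ± 0.11 and TRIM6, an interferon-pathway ligase, at -0.42 ± 0.10 (edgeR adjusted p = 0.0012, 0.00698 and 0.00839). It also called TRIM35, TRIM8 and TRIM62 higher and TRIM66 lower, by log2 fold changes of 0.24 ± 0.07, 0.25 ± 0.07, 0.28 ± 0.10 and -0.36 ± 0.10. Without the block, TRIML2, TRIM4 and TRIM47 were still called when any 1 library was left out, and TRIM45 was lost each time. Of the 20 p53 targets outside the family, 3 were called higher and 2 lower in irradiated SAS, and the same counts held in irradiated Cal33, at medians of -0.03 and 0.10.

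Under the inhibitor, GSK-J1 with 4 Gy against GSK-J1 again called 4 members in SAS, with the names TRIM47, TRIM4, TRIML2 and TRIM45 and the directions as before. Here 4.42% of all genes were called, 2.43% higher and 1.99% lower, and the median of the members was -0.02 against 0.000305 for all genes. TRIML2 had 41.1, 43.0 and 42.4 CPM under GSK-J1 and 47.2, 58.8 and 59.5 CPM with 4 Gy added (log2 fold change 0.39 ± 0.09, edgeR adjusted p = 0.0373). TRIM47 had 27.3, 27.1 and 29.5 CPM and then 38.9, 33.0 and 39.1 CPM (log2 fold change 0.40 ± 0.08, edgeR adjusted p = 0.0175). TRIM4 changed by -0.35 ± 0.07 and TRIM45 by -0.48 ± 0.12 on the log2 scale. With the replicate block 11 members were called, where 21.5% of all genes were, among them TRIM22 at -0.82 ± 0.18 and TRIM29 at -0.48 ± 0.11. No call was left without GSK-J1 replicate 1, nor without both libraries that hold Cal33 transcripts. Leaving out GSK-J1 replicate 2, or replicate 2 or 3 of GSK-J1 with 4 Gy, left 1 call. Leaving out GSK-J1 replicate 3 or GSK-J1 with 4 Gy replicate 1 left 2 of the 4. Over all genes, 1036 calls fell to 330 without GSK-J1 replicate 1 and to 97 without both libraries that hold Cal33 transcripts. The other single omissions left 338 to 914.

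**Figure D4:**
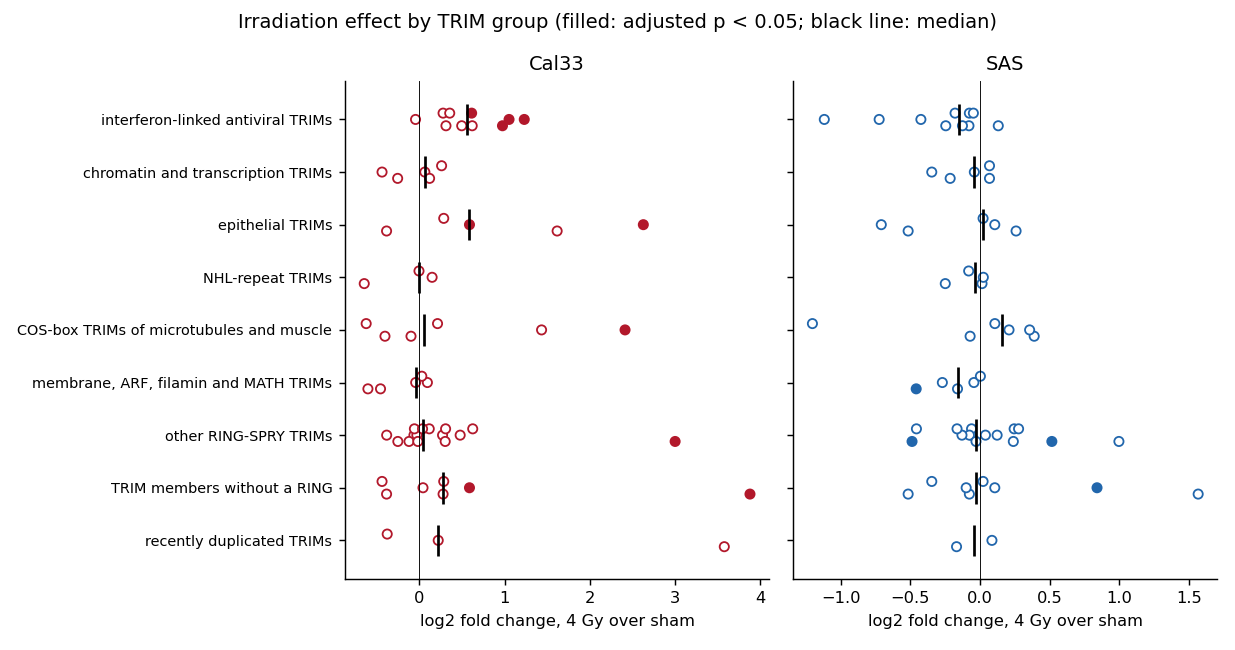
Log2 fold change of 4 Gy over sham for the tested members of 9 TRIM groups, Cal33 at left and SAS at right, on different scales, with filled points where called and a black line at each group's median. The interferon-linked members lie mostly right of 0 in Cal33, with a median of 0.55, and mostly left of 0 in SAS, with a median of -0.15.

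The difference of the irradiation effect between the lines was tested in the fit of all 24 libraries. TRIM31 and TRIML2, both with the higher log2 fold change in Cal33, were the 2 of 55 members called. Of all genes 0.427% were called, 0.285% with the higher effect in Cal33 and 0.142% with the lower. The effect on TRIM31 was higher in Cal33 by 3.32 ± 0.69 on the log2 scale (edgeR adjusted p = 0.0362), while SAS had 0.378, 0.287 and 0.230 CPM before and 0.248, 0.217 and 0.0851 CPM after irradiation, with no call. The effect on TRIML2 was higher in Cal33 by 3.06 ± 0.64 (edgeR adjusted p = 0.0375), although its level after 4 Gy remained far below that of SAS. Without a block TRIM21 and TRIM22 missed the threshold, at 1.20 ± 0.30 and 2.15 ± 0.55 (edgeR adjusted p = 0.0845 and 0.0917). With the replicate as a block both were called, at 1.15 ± 0.23 and 2.05 ± 0.30 (edgeR adjusted p = 0.00936 and 0.00149), although the numbers did not pair the sham libraries of Cal33. On counts without strand TRIM31 was at 1.51 and was not called (adjusted p = 0.375). Without sham replicate 3 of Cal33 it was at 4.12, and without sham replicate 2 TRIML2 was at 4.05. At the low end of the 19 alternative runs TRIML2 was at 2.63. Both calls were lost on leaving out any 1 of 8 libraries. In Cal33 these were 4 Gy replicate 1 or 3 and sham replicate 1. In SAS they were any 4 Gy library and sham replicate 1 or 2. Both calls were also lost without the SAS libraries that hold Cal33 transcripts. Those libraries are not in the groups compared here, and they enter only the count filter, the scaling and the estimate of spread. Over all genes, 105 calls fell to between 23 and 69 on these single omissions, and to 61 without those SAS libraries.

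**Figure D5:**
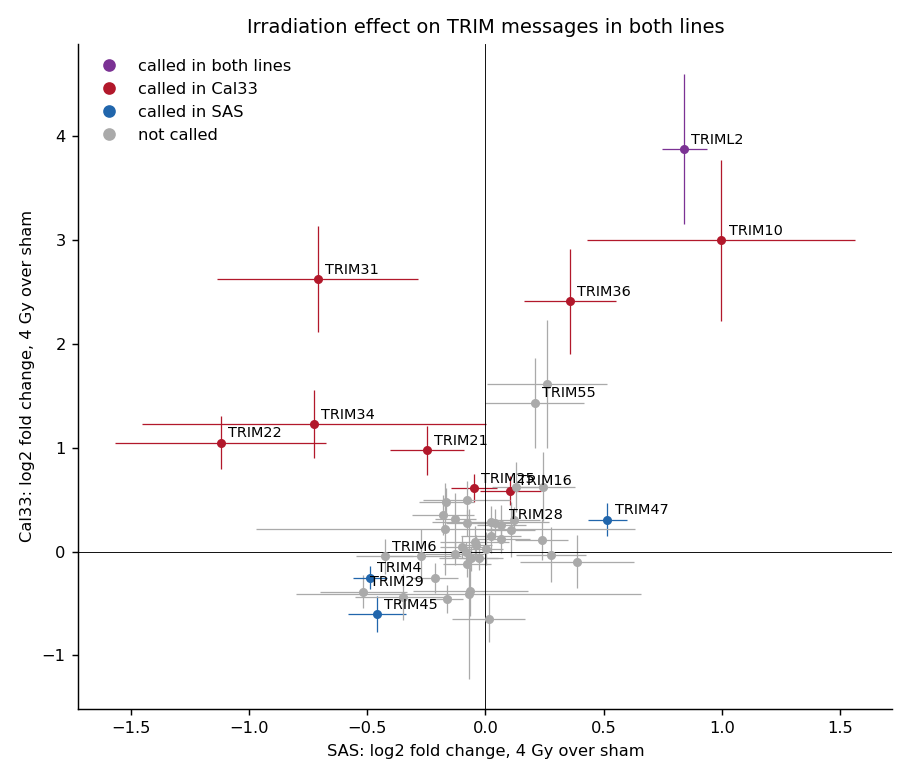
Log2 fold change of 4 Gy over sham in SAS (horizontal) and Cal33 (vertical), with 1 SE, for 50 members tested in both lines with an SE under 1. TRIML2 at 0.84 and 3.88 is the member called in both lines, and TRIM22 lies at -1.12 and 1.05.

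Some members lie close together. TRIM6, TRIM34, TRIM5 and TRIM22 lie within chr11:5617339-5959849 (hs37d5), and all 4 were higher in Cal33 than in SAS without treatment. After 4 Gy, 3 of these 4 had a positive log2 fold change in Cal33 and 0 of 4 in SAS. The 8 members within chr6:25963030-30311506 (TRIM38, TRIM27, TRIM31, TRIM40, TRIM10, TRIM15, TRIM26 and TRIM39) all had a positive log2 fold change in irradiated Cal33, with TRIM31 and TRIM10 called, and 4 of the 7 tested had one in SAS. Between the sham groups 3 of 7 tested there were on the Cal33 side. Of the 8, TRIM40 had 19 counts over the 24 libraries, and TRIM31 and TRIM10 had few counts in sham Cal33. TRIM21 and TRIM68, within chr11:4406127-4629489, were both on the Cal33 side, and 1 of the 2 had a positive log2 fold change in irradiated Cal33 and 0 of 2 in irradiated SAS. Over the family, 35 of 55 members had a positive log2 fold change in irradiated Cal33, 23 of 55 in irradiated SAS and 33 of 55 between the sham groups. The medians over all genes were 0.01, -0.02 and 0.02 in that order.

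The inhibitor by itself gave no call among the members by edgeR without a block. In Cal33, GSK-J1 against sham called 0 of 55 members (0.0% of all genes), with 0 members at an unadjusted p under 0.05 and 0 called by DESeq2. The members with the smallest p above 1 CPM were TRIM23, an ARF-domain ligase, at 0.14 ± 0.15, TRIM55 at 0.40 ± 0.44 and TRIM46 at -0.23 ± 0.27 (log2 fold changes). TRIM22, TRIM25, TRIM28 and TRIM29 had log2 fold changes of -0.09 ± 0.25, -0.05 ± 0.13, -0.03 ± 0.18 and 0.00 ± 0.16. All 10 interferon-linked TRIMs were on the negative side, at a median of -0.05 against 0.000572 for all genes. So were 33 of the 37 interferon-stimulated genes outside the family, at a median of -0.15, with 0 called. For TRIM22 the error is wide enough that a modest effect would not have been detected.

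In irradiated Cal33, GSK-J1 with 4 Gy against 4 Gy called 0 of 55 members (0.0% of all genes), 0 at an unadjusted p under 0.05 and 0 by DESeq2. TRIM52, TRIM66 and TRIM47 had the smallest p among members above 1 CPM, with log2 fold changes of -0.18 ± 0.12, -0.25 ± 0.22 and 0.16 ± 0.16. With the replicate block over the 6 libraries, TRIML2 alone was called, at -0.71 ± 0.16 (edgeR adjusted p = 0.0088), where 0.515% of all genes were. Its counts were 176, 43 and 168 after 4 Gy and 121, 31 and 82 after the combination, and each combination library was below the 4 Gy library of its number. The interaction of inhibitor and irradiation called 0 members in Cal33 (0.0% of all genes), with 0 at an unadjusted p under 0.05 and 0 by DESeq2. TRIM52, TRIM32 and TRIM23 came first, at -0.15 ± 0.17, 0.11 ± 0.13 and -0.17 ± 0.22.

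In SAS, GSK-J1 against sham called 0 of 55 members without a block (0.0% of all genes). Of the members, 2 had an unadjusted p under 0.05 and DESeq2 called 1, where it called 3 of 23398 genes. TRIML2 had 28.3, 26.8 and 29.2 CPM in sham libraries and 41.1, 43.0 and 42.4 CPM under GSK-J1, without overlap. Its log2 fold change was 0.59 ± 0.09, with an adjusted p = 0.797 in edgeR without a block and 0.000844 in DESeq2. With the replicate block over the 12 libraries TRIML2 was the 1 member called (adjusted p = 0.00677), where 0.0427% of all genes were. Over the 6 libraries compared, the block called TRIML2 at 0.59 ± 0.06 and TRIM22 at -0.58 ± 0.09 (adjusted p = 1.8e-07 and 9.6e-05), where 2.59% of all genes were. TRIM22 had 6.46, 7.30 and 2.27 CPM under GSK-J1, each below the sham library of its number. Without the block TRIM22 was at -0.58, and at -0.74 without the libraries that hold Cal33 transcripts, and it was not called in either. TRIM31, TRIM21 and TRIM16 had log2 fold changes of -1.03 ± 0.43, -0.30 ± 0.16 and -0.22 ± 0.13. Of the 37 interferon-stimulated genes outside the family, 30 were on the negative side without a block, at a median of -0.23, with 0 called. The block over the 6 libraries called 14 of these genes lower and 1 higher.

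In irradiated SAS, GSK-J1 with 4 Gy against 4 Gy called 0 of 55 members without a block (0.0% of all genes), with 1 at an unadjusted p under 0.05 and 0 by DESeq2. With the block over the 6 libraries 4 members were called, all lower, where 7.98% of all genes were. They were TRIM16 at -0.27 ± 0.05, TRIM22 at -0.38 ± 0.10, TRIM46 at -0.25 ± 0.07 and TRIM17 at -0.27 ± 0.08 (edgeR adjusted p = 0.000254, 0.0117, 0.0187 and 0.0215). TRIM46 had 7.79, 7.51 and 8.25 CPM after 4 Gy and 6.83, 6.72 and 6.30 CPM after the combination. The groups were without overlap, but edgeR without a block did not call TRIM46.

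TRIML2 had the smallest p of the interaction in SAS. The effect of 4 Gy on its log2 level was lower by 0.45 ± 0.13 under GSK-J1 than without it, with an unadjusted p = 0.00471 and an adjusted p of 1 in edgeR. The interaction called 0 members in SAS (0.0% of all genes), with 1 at an unadjusted p under 0.05 and 0 by DESeq2. TRIM4 and TRIM3 followed, at 0.14 ± 0.10 and 0.20 ± 0.18. Across the 4 groups of SAS the mean level of TRIML2 was 28.1 CPM in sham, 42.2 CPM under GSK-J1, 50.3 CPM after 4 Gy and 55.2 CPM after both, and the last 2 groups overlapped. TRIML2 lies at chr4:189012427-189030757 on the minus strand of hs37d5.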

How the data were processed

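RNA-seq was measured in 24 libraries of Cal33 and SAS cells. Per the labels and the study's methods, the authors prepared stranded total RNA, aligned reads to hs37d5 with STAR 2.5.3a, used SAMtools 1.6 and counted reads per gene with featureCounts of Subread 1.5.1. The deposited values are raw counts, not normalized. Reads on the gene's own strand, 94.4 to 95.2% of the stranded reads, were used, at 54200036 to 96848227 per library. Genes averaging 1 count or more over the libraries of a fit were tested in R 4.3.3 with edgeR 4.0.16 (TMM, quasi-likelihood F test on group means, Benjamini-Hochberg over all genes), on the 12 libraries of a line or on all 24 between lines. The SE is the log2 fold change divided by the square root of F. CPM use TMM library sizes. TPM were computed from the same counts and the exonic length in the files.

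Alternatives were DESeq2 1.42.0 size factors and its test, other count filters, counts without strand, the 6 libraries compared, the replicate block, each library left out, and the SAS libraries with Cal33 transcripts left out. Those transcripts were found as genes of at least 20 CPM in Cal33 and at most 0.01 CPM on median in SAS. Numbers were taken to pair groups where the deviations from the group means of every replicate pair correlated above 0.1 across genes, which held in SAS (lowest r = 0.113) and among the treated groups of Cal33 (0.105) but not with its sham group (-0.349). The tests were tried on simulated counts.

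Members, gene lists and the named genes (calls, the smallest p where fewer than 3 were called, highest levels, largest line differences, and TRIM22, TRIM25, TRIM28, TRIM29 and TRIML2) were chosen with earlier results of these data known. Reads shared by near-identical copies such as TRIM16 and TRIM16L or TRIM73 and TRIM74 cannot be assigned with certainty. No protein sequences were used here.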

Additional observations from a re-analysis of the deposited data

Results flagged for a closer look

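The irradiation effect on 2 members differed between the lines by a test of the difference itself. The effect of 4 Gy on TRIML2 was 3.06 higher in Cal33 than in SAS on the log2 scale, where the gene rose in both lines, from 0.0276, 0.247 and 0.0748 CPM to 2.32, 0.608 and 2.07 CPM in Cal33 and from 28.3, 26.8 and 29.2 CPM to 46.9, 54.2 and 49.9 CPM in SAS. The effect on TRIM31 was 3.32 higher in Cal33, where it rose from 6, 5 and 23 counts to 108, 44 and 47 counts. Both rest on few counts in Cal33 sham libraries. Each was called in 8 of 19 alternative runs. Neither was called without the SAS libraries that hold Cal33 transcripts, although those libraries are not in the groups compared. On counts without strand the difference for TRIM31 was 1.51 and was not called.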

How the results depend on the processing

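Depth limits the members with few counts, above all TRIM10, TRIM31, TRIM34, TRIM36 and TRIML2 in Cal33. All calls of every comparison kept their direction in each alternative run, except TRIM31 between the sham groups, which was 1 of 43 and was not called on counts without strand. In 4 Gy against sham of Cal33 the numbers do not pair with sham. There the replicate block called 14 members over 12 libraries, 12 higher and TRIM2 and TRIM45 lower at -0.69 and -0.60. Over the 6 compared it called 5, and leaving out 1 library called 2 to 8. Of all genes, the block called 2414 of 24351 over 12 libraries and 921 of 24555 over 6. Leaving out 1 library called 427 to 1210 genes, against 1528 in the main fit. In GSK-J1 with 4 Gy against GSK-J1 of Cal33, the 6 libraries compared called 5, with the replicate block 22, and leaving out 1 library 0 to 10. The same runs called 895, 4494 and 254 to 1342 of all genes, against 1245 in the main fit. In GSK-J1 with 4 Gy against 4 Gy of Cal33 the block over 6 libraries called 1, and 127 of 24662 genes. In SAS the replicate block called 11 for 4 Gy against sham and 7 over 6 libraries, and leaving out 1 library 3 to 5. Of all genes these runs called 5734, 3869 and 587 to 1880, against 1658 in the main fit. For GSK-J1 with 4 Gy against GSK-J1 in SAS the block called 11 and, over 6 libraries, 12. The 6 libraries without a block called 0, the fit without the libraries with Cal33 transcripts 0, and leaving out 1 library 0 to 3. These runs called 5029, 4787, 540, 97 and 330 to 914 of all genes, against 1036 in the main fit. GSK-J1 against sham in SAS gave 1 by DESeq2, 1 with the block and 2 with the block over 6 libraries. GSK-J1 with 4 Gy against 4 Gy gave 4 with the latter. Over all genes these 4 runs called 3, 10, 596 and 1903, where the main fits called 0. The difference of the irradiation effect between the lines called 6 by DESeq2 and 5 without a count filter. With the replicate block it called 7 (TRIM21, TRIM22, TRIM25, TRIM31, TRIM36, TRIM69 and TRIML2). It called 1 on counts without strand, 0 without the libraries with Cal33 transcripts, and 0 to 4 with 1 library left out. Over all genes these runs called 439, 284, 631, 78, 61 and 23 to 135, against 105 in the main fit. Sham of Cal33 against sham of SAS called 38 with the replicate block and 39 to 40 with 1 library left out. Of all genes these runs called 13489 and 12169 to 12783, against 13402 in the main fit. The block changed no other count by over 1.5 times. The cause of these shifts was not tested.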
